A study of Mus musculus with 8 samples.

Results

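Dasatinib was compared with its solvent DMSO in granulocytic myeloid-derived suppressor cells (Gr-MDSCs) after 6 h of treatment ex vivo, on 6 of the 8 arrays of the series. The members were chosen by the array titles: 2 arrays of cells treated with 0.1 µM Dasatinib (Dasatinib 1 and 2) and 4 arrays of DMSO-treated control cells (DMSO 2, 3, 4 and 5). A separate treatment label of both Dasatinib arrays names Dactolisib, the PI3K/mTOR inhibitor given to the cells of the remaining 2 arrays, and was not followed. All samples came from mice called CPPSML, labelled as 12 to 16 weeks old, which carry PB-Cre+ together with floxed alleles of 3 tumour suppressors (PtenL/L, p53L/L and Smad4L/L) and with the reporters mTmGL/+ and LSL-LucL/+. Tumours reached 150 mm3 in mice that were 8 to 12 weeks old at the start, and the animals were then castrated and fed enzalutamide for 4 weeks, so that castration and enzalutamide were shared by both groups. The deletions are driven by a probasin promoter, which acts in prostate epithelium and not in the myeloid cells that were isolated from the tumours by magnetic sorting. No label says whether samples came from separate mice or separate cultures, or whether animals were pooled, so that p-values reflect only how far these arrays differ from each other, a spread that may be technical.

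Gr-MDSCs are immature, neutrophil-like cells that gather in tumours and restrain T cells through arginase, reactive oxygen species and inhibitory ligands. Dasatinib is an ATP-competitive inhibitor of the Src and Abl kinase families that also binds Kit, the CSF1 receptor, Btk and other tyrosine kinases. In granulocytes, Src-family kinases such as Fgr couple integrins and Fc receptors to adhesion, degranulation and cytokine release. Interferon-stimulated genes, a recurring group below, are switched on when interferon receptors signal through JAK kinases and STAT factors, and serve antiviral defence and antigen processing.

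The arrays, each a measurement of log2 signal for 45101 probe sets, did not group by treatment. Hierarchical clustering gave set A with DMSO 2, DMSO 4 and a Dactolisib array, set B with Dasatinib 2, DMSO 3 and the other Dactolisib array, and set C with Dasatinib 1 and DMSO 5. The lowest Pearson correlation across probe sets within a set was 0.987 and the highest between sets 0.98. Set C, which holds only these 2 arrays, had high levels of some non-myeloid transcripts, described further below. Which transcripts set it apart in the clustering was not tested. S100a8 and S100a9, the calprotectin subunits of neutrophils, had log2 signals of 13.53 to 13.85 and 13.69 to 14.12 on the 6 arrays. Csf3r, the G-CSF receptor, had a lower signal in set C, at 11.62 on Dasatinib 1 and 11.64 on DMSO 5, than on the other 4 arrays, at 12.40 to 12.55. Csf1r, the CSF1 receptor and a monocyte and macrophage marker, was at 11.43 to 12.47 on the 6 arrays. These levels alone do not settle the share of granulocytes.

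The question of which genes respond to Dasatinib was first put to all 6 arrays without regard to the sets. No probe set of the 30024 tested passed an adjusted p of 0.05 in limma, the lowest adjusted p being 1. At an unadjusted p under 0.05, 52 probe sets were higher and 58 lower with Dasatinib, where 1501 would be called by chance at that level. This count of 110 rests on single arrays: it was 1206 (372 higher and 834 lower) without Dasatinib 2, 565 (374 and 191) without DMSO 3, 502 without DMSO 5, and 23 and 20 without DMSO 2 and DMSO 4. On the scale of genes, each represented by its brightest probe set, 0.14% of the 14237 tested were higher and 0.162% lower at that level. Both Dasatinib arrays lay above all 4 DMSO arrays for 237 genes (1.66%) and below all 4 for 351 genes (2.47%). The unpaired t-test named in the methods called 346 probe sets at an unadjusted p under 0.05, 136 higher and 210 lower, and 0 after Benjamini-Hochberg adjustment.

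The same comparison was then made within the array sets, with the set as a block. Again 0 probe sets passed the adjusted threshold in limma, with a lowest adjusted p of 0.85. At an unadjusted p under 0.05, 638 probe sets were higher and 826 lower, 1464 in all, where 1501 would be called by chance at that level. The background over genes was 1.86% higher and 2.1% lower. The 88 probe sets below an unadjusted p of 0.05 in both fits all had the same direction in both. Both fits use the same arrays, so that this shared direction is no independent support. Leaving out Dasatinib 2, or DMSO 3 of its set, left Dasatinib 1 against DMSO 5 as the whole comparison and gave 764 probe sets past the adjusted threshold, 435 higher and 329 lower. That count is measured against the spread between DMSO 2 and DMSO 4 alone. Leaving out Dasatinib 1 or DMSO 5 gave 0.

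Taken singly, the 2 Dasatinib arrays differed from the DMSO array of their own set to unequal extents. Dasatinib 1 differed from DMSO 5 by 2-fold or more at 364 probe sets, 198 higher and 166 lower, which is 1.21% of those tested. Dasatinib 2 differed from DMSO 3 at 7 probe sets (0.0233%). DMSO 2 and DMSO 4, the pair of controls in set A, differed at 8 (0.0266%). With 32 added to the linear signals before log2, these counts were 185, 1 and 0. The SD of the differences over all probe sets was 0.316 for Dasatinib 1, 0.152 for Dasatinib 2 and 0.165 for the pair of DMSO arrays, on the log2 scale, so that Dasatinib 2 was as close to its control as 2 controls were to each other.

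The own-set differences of the 2 Dasatinib arrays had a Pearson r of -0.06 and a Spearman coefficient of -0.06 across the 30024 probe sets, a description across genes that are not independent. A difference of 2-fold or more was found on both arrays at 5 probe sets, and 0 of these had the same direction. They belong to Krt6b, Krt10 and Krt14, keratins of stratified epithelium, to Reg3b, a secreted lectin, and in the last case to more than 1 gene. At that last probe set and at Krt10, DMSO 2 and DMSO 4 also differed past 2-fold, by 1.48 and 1.13 on the log2 scale, and neither passed the test of the difference between sets described next (adjusted p = 0.124 and 0.265 in limma). Over all genes, 21.9% were higher and 22.8% lower in both own-set comparisons. The difference between the sets was also tested directly, as the Dasatinib minus DMSO difference in set C less that in set B. By this test 106 probe sets passed the adjusted threshold in limma, 48 positive and 58 negative. Those assigned to a single gene belong to 79 genes. By brightest probe set these were 0.492% of genes. This test has 1 residual degree of freedom, from DMSO 2 and DMSO 4, beside those borrowed across probe sets, and its count ranged from 62 without a filter on dim probe sets to 578 with a trended and robust prior.

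**Figure D1:**
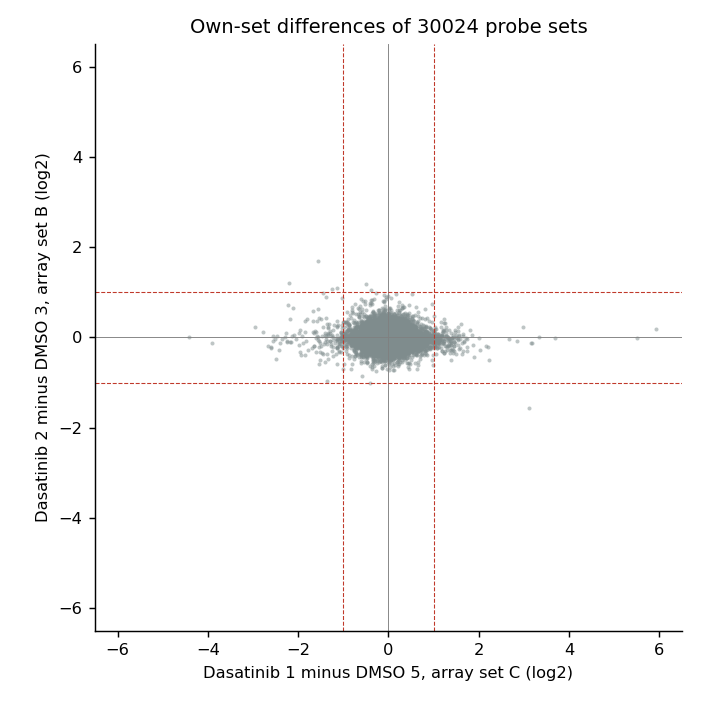
Each point is 1 of 30024 probe sets, placed by the log2 difference of Dasatinib 1 from DMSO 5 (x axis) and of Dasatinib 2 from DMSO 3 (y axis). Dashed lines mark 2-fold. The cloud is wide along x, with 364 probe sets past 2-fold, and narrow along y, with 7.

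Of the genes that passed that test, 8 are described here, picked out after their values were seen and not by rank. Prol1, a proline-rich secretory protein, had a log2 signal of 9.41 on Dasatinib 1, 3.47 on DMSO 5, 3.67 on Dasatinib 2 and 3.48 on DMSO 3. 2310057J18Rik was likewise at 9.78 on Dasatinib 1 and at 4.28, 4.30 and 4.31 on those other arrays. Both were thus high on Dasatinib 1 alone, and Prol1, below 3.98 on the other 5 arrays, passed the filter on dim probe sets only through that array, so that its value is a description. Mndal, an interferon-inducible DNA-binding protein, was low there instead, at 2.23 against 6.15 on DMSO 5, 6.70 on Dasatinib 2 and 6.82 on DMSO 3. For Clba1, DMSO 5 was the low array, at 6.21 against 9.43 to 9.89 on the other 5. Slco3a1, an organic anion transporter, was lowest on DMSO 5, at 4.98, and highest on Dasatinib 1, at 8.16. On the remaining arrays it was at 6.19 to 7.01. Clba1 thus differed by 3.69 in set C and -0.01 in set B, and Slco3a1 by 3.18 and -0.13, on the log2 scale. Ctse, the protease cathepsin E, and Saa3, an acute-phase protein, differed by -2.77 and -2.55 in set C and by 0.11 and 0.03 in set B. Casp4, a caspase of the inflammasome, differed by -1.91 and 0.04. Beside Prol1, the adjusted p-values of these genes ran from 0.00221 (2310057J18Rik) to 0.0223 (Casp4) in limma.

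Few genes differed alike on both arrays. At 1.5-fold or more, 3 probe sets were higher in both own-set comparisons, 5 were lower in both, and 23 were opposite. Those alike on both arrays were picked for that agreement. The p within sets measures the same agreement, so that a small p follows largely from the choice. None of them passed the adjusted threshold within sets. The higher ones belong to Phf11d, a PHD finger protein, St3gal2, a sialyltransferase, and Cxcl15, a chemokine known from lung epithelium. Phf11d had a log2 signal of 8.97 on Dasatinib 1 against 8.00 on DMSO 5, of 6.36 on Dasatinib 2 against 5.63 on DMSO 3, and of 7.31 and 7.30 on the DMSO arrays of set A. Within sets it was higher by 0.85 ± 0.11 (SE), with an unadjusted p of 0.000106 in limma. The levels of the groups overlap, since the sets differ by more than the treatments do. St3gal2 was at 5.36 and 4.55 in set C, 4.14 and 3.52 in set B, and 4.54 and 4.48 in set A, the Dasatinib array coming first in each pair of sets C and B. It was higher by 0.72 ± 0.10 within sets (limma, unadjusted p = 0.000261), and 2 of its 3 probe sets had that sign. Cxcl15, at 8.82 and 8.20 in set C and 4.17 and 3.49 in set B, lay at a level that followed the epithelial content of the sets.

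The lower ones belong to Mapk8, Ociad2, Socs2, Cpne8 and Col1a2. They were picked in the same way, so that a small p within sets follows largely from the choice here too. Mapk8 encodes the stress kinase JNK1, and the probe set concerned is 1 of 5 of that gene, 4 of which had the same sign. It read 3.62 on Dasatinib 1 and 4.98 on DMSO 5, 4.35 on Dasatinib 2 and 5.31 on DMSO 3, and 4.01 and 3.88 on DMSO 2 and 4. It was therefore lower within both sets, by 1.36 and 0.96 on the log2 scale, while DMSO 2 and 4 were as low as the Dasatinib arrays. The difference of -1.16 ± 0.13 within sets had the lowest p of all named genes, 4.83e-05 unadjusted and 0.85 adjusted (limma). Without the block it was -0.56 ± 0.48.

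Ociad2, a mitochondrial and endosomal membrane protein, was lower in both fits. It read 5.21 and 4.54 on Dasatinib 1 and 2, and 5.75, 5.24, 5.86 and 6.21 on DMSO 2, 3, 4 and 5, so that both Dasatinib arrays lay below every DMSO array. The difference was -0.85 ± 0.12 within sets (limma, unadjusted p = 0.000185) and -0.89 ± 0.31 without the block (unadjusted p = 0.0288). Socs2, an inhibitor of JAK-STAT signalling induced by cytokines, read 7.28 on Dasatinib 1 against 8.10 on DMSO 5 and 5.01 on Dasatinib 2 against 5.70 on DMSO 3. Its difference within sets was -0.76 ± 0.11 in limma, and all 3 of its probe sets were lower. Cpne8, a calcium-dependent membrane-binding copine, differed by -0.59 and -0.86 in the 2 sets. A probe set of Col1a2, a chain of type I collagen, differed by -1.55 and -0.60. Adm, the hypoxia-induced peptide adrenomedullin, differed by -0.76 and -0.48.

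**Figure D2:**
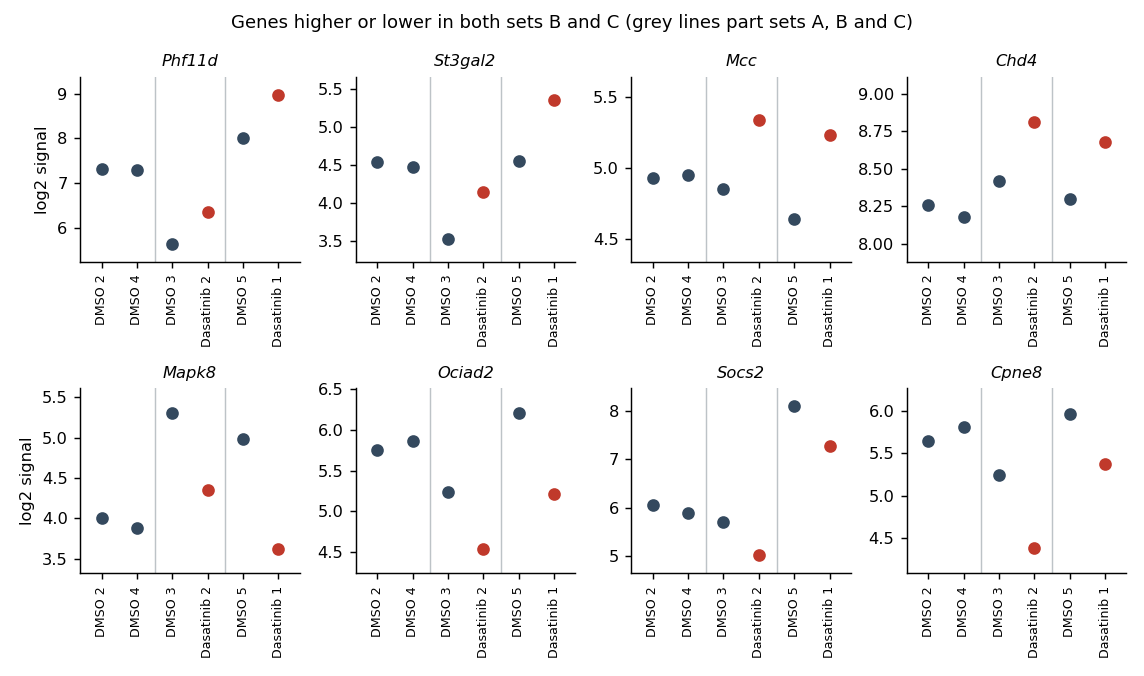
Log2 signal of 8 genes (y axes, not starting at 0) on the 6 arrays (x axes), DMSO in dark blue and Dasatinib in red, 1 point per array. Phf11d, St3gal2, Mcc and Chd4 were higher and Mapk8, Ociad2, Socs2 and Cpne8 lower on the Dasatinib array of sets B and C; for Mapk8 the DMSO arrays of set A, at 4.01 and 3.88, were as low.

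The genes with the lowest p without the block had smaller but even differences. Among the higher ones, Ino80 and Chd4, ATPases of chromatin remodelling complexes, are the leading genes by p. The Chd4 signals were 8.68 and 8.81 on the Dasatinib arrays and 8.18 to 8.42 on the DMSO arrays, a difference of 0.46 ± 0.12 (limma, unadjusted p = 0.00882), and its 3 probe sets agreed in sign. For Ino80 the signals were 5.28 and 5.35 against 4.79 to 4.93, and 1 of its 2 probe sets was higher within sets. Plxnb1, a semaphorin receptor, Lpp, an adaptor of focal adhesions, and Lztfl1, a regulator of ciliary transport, were higher by 0.53, 0.43 and 0.43 on the log2 scale. Within sets, that sign was found for 1 of 2 probe sets of Plxnb1, 1 of 8 of Lpp and 3 of 4 of Lztfl1. H2-K1, a classical MHC class I heavy chain, read 8.90 and 8.82 with Dasatinib and 8.21 to 8.59 with DMSO. Mcc, a regulator of Wnt signalling and migration, read 5.23 and 5.34 against 4.64 to 4.95, with 4 of 4 probe sets higher and a difference of 0.54 ± 0.10 within sets (limma, unadjusted p = 0.000962). The groups did not overlap for any of these 7 genes. They were picked for a low p on these same arrays, so that this follows largely from the choice. Over all genes, 1.66% had both Dasatinib arrays above.

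On the lower side, the leading genes were Ntpcr, a nucleoside triphosphatase, Baz1b, a subunit of a chromatin remodeller, Mtm1, a phosphoinositide phosphatase, Mgme1, a mitochondrial exonuclease, Klk8, a kallikrein protease of epithelia, and Sh3rf2, a ubiquitin ligase. Baz1b read 4.31 and 4.14 with Dasatinib against 4.54 to 5.08, and 3 of its 5 probe sets were lower within sets. Mtm1 read 5.66 and 5.96 against 6.13 to 6.43, with all 3 probe sets lower. Differences of these 6 genes without the block ran from -0.90 (Klk8) to -0.40 (Mgme1). Both Dasatinib arrays lay below every DMSO array for each, which again follows largely from their choice by p on these arrays. None passed an adjusted p of 0.05 in either fit.

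Of 23 tested kinases that Dasatinib binds, 0 were higher and 1 lower at an unadjusted p under 0.05 within sets, where the shares over all genes were 1.86% and 2.1%, 0 in either direction without the block, and the median own-set difference was -0.01 on each Dasatinib array, against 0.02 and -0.01 over all tested genes. The lower one was Fyn, a Src-family kinase, with 5.50 on Dasatinib 1 and 6.11 on DMSO 5, and with 4.69 to 4.86 on the other 4 arrays (limma, within sets -0.39 ± 0.13, unadjusted p = 0.0193). Src itself read 8.21 and 7.72 in set C and 6.68 to 7.0 elsewhere, so that it followed the set rather than the treatment, with a difference of 0.20 ± 0.17 within sets. Fgr, the granulocyte Src-family kinase, read 9.97 on Dasatinib 1 and 9.49 on DMSO 5 against 10.82 to 11.06 on the other arrays, and differed by 0.22 ± 0.14. Abl1 and Abl2 differed by -0.06 ± 0.12 and -0.07 ± 0.10. Btk, Csf1r, Kit and Yes1 differed by 0.14, 0.13, -0.12 and -0.11, with SEs of 0.12 to 0.17. Among 32 partners of Src-family signalling, 0 were called in either direction, and Vav1, a signalling protein of blood cells, and Lcp2, the adaptor SLP-76, were higher on Dasatinib 1 by 0.83 and 0.62 and differed by -0.08 and 0.04 on Dasatinib 2.

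Interferon-stimulated genes were the group with the highest median on Dasatinib 1. Of 39 tested genes of the type I list, 37 were higher on Dasatinib 1 than on DMSO 5, with a median difference of 0.81 on the log2 scale and 10 genes past 2-fold. On Dasatinib 2, 19 of the 39 were higher than on DMSO 3 and the median was 0.00, with 0 past 2-fold. At an unadjusted p under 0.05, 10 were higher within sets and 3 without the block (25.6% and 7.69% of the list, against backgrounds of 1.86% and 0.14%), 0 were lower, and 0 passed the adjusted threshold. The median of the list thus differed on Dasatinib 1 and not on Dasatinib 2. Members with the lowest p within sets were higher on Dasatinib 2 as well, by 0.12 to 0.15, which follows largely from their choice by that p. The fit without the block also takes in the high level of Dasatinib 2, which its control DMSO 3 shared. The list of 23 interferon-gamma-induced GTPases and chemokines had medians of 0.87 and -0.01, and 4 of its genes were higher at that level in each fit.

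Single genes of these lists show the same. Mndal, the interferon-inducible gene described above, is on neither list and differed by -3.92 on Dasatinib 1 and -0.13 on Dasatinib 2. Ifit3, a tetratricopeptide protein that restrains viral RNA and was picked after its values were seen, had a log2 signal of 11.12 on Dasatinib 1 against 9.11 on DMSO 5, a 4.02-fold difference, and of 10.70 on Dasatinib 2 against 10.72 on DMSO 3. On DMSO 2 and 4 it was at 9.81 and 9.62. The Dasatinib 2 level was thus high together with its control. The difference between the sets was 2.02 ± 0.20 (limma, adjusted p = 0.0327). Gbp3, a guanylate-binding GTPase that attacks pathogen vacuoles, was at 9.54 and 7.91 in set C, 8.98 and 8.91 in set B and 7.88 and 7.82 in set A, and also passed that test (adjusted p = 0.0425). Ifit1, a relative of Ifit3 picked in the same way, was at 11.28 and 9.85 in set C, 11.17 on both arrays of set B and 9.99 and 9.79 in set A. Irgm1, an immunity-related GTPase, was at 10.02 and 8.52 in set C and 9.83 on both arrays of set B (adjusted p = 0.0527 for the difference between sets).

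The members with the lowest p within sets were higher on both arrays by unequal amounts. They were picked by p on these same arrays, so that the shared direction follows largely from the choice. Oas3, a sensor that starts RNA decay, differed by 0.62 on Dasatinib 1 and 0.15 on Dasatinib 2, and Parp14, Zbp1 and Slfn5 by 0.83, 0.58 and 1.21 on Dasatinib 1 and 0.12, 0.14 and 0.13 on Dasatinib 2. Gbp2 and Irgm2 differed by 0.82 and 1.03, then by 0.08 and 0.09. The latter amounts are below the SD of 0.152 of all own-set differences on that array. The summed level of the list (log2 of the sum of its linear signals) was 15.73 on Dasatinib 1, 15.95 and 15.94 on the arrays of set B, and 15.22, 15.11 and 15.01 on DMSO 2, 4 and 5. DMSO 5 was thus the lowest of the 6 arrays, and the level on Dasatinib 1 stayed within the range of DMSO arrays. Tlr7 and Ifnar1, a sensor of viral RNA and a chain of the type I interferon receptor, differed by 0.24 and 0.52 on Dasatinib 1 and by 0.31 and 0.11 on Dasatinib 2.

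**Figure D3:**
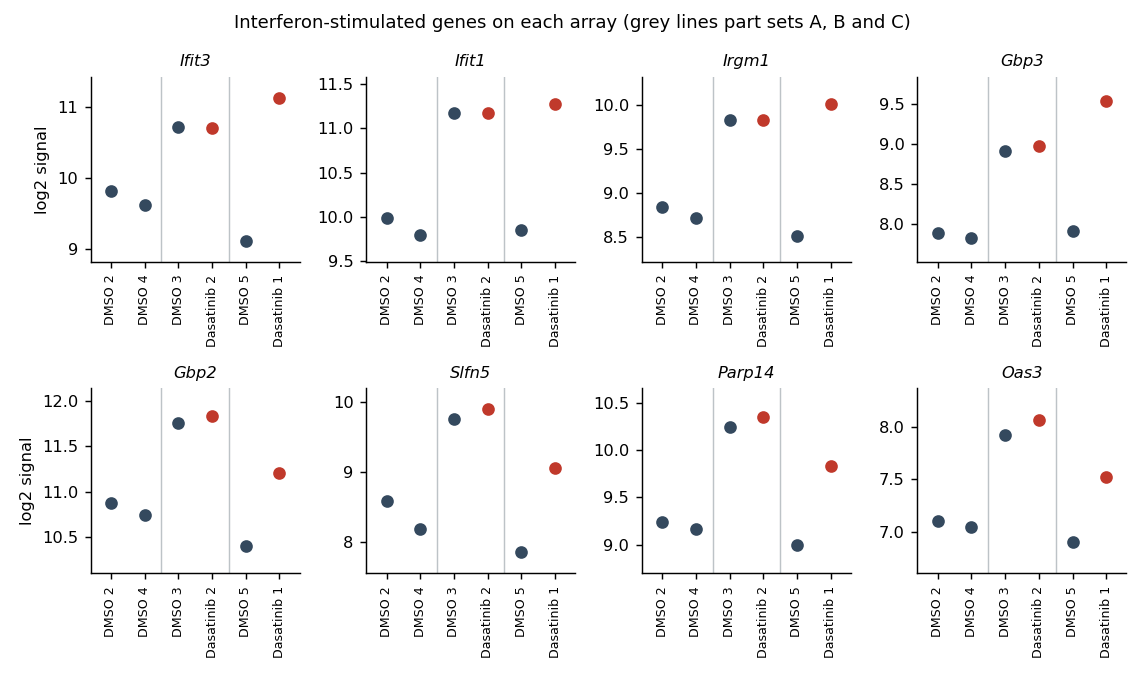
Log2 signal of 8 interferon-stimulated genes (y axes, not starting at 0) on the 6 arrays (x axes), DMSO in dark blue and Dasatinib in red, 1 point per array. Both arrays of set B were high with or without Dasatinib, while in set C Dasatinib 1 lay above DMSO 5 in every panel, from 0.62 (Oas3) to 2.01 (Ifit3).

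The promoters of these genes are known to carry interferon-stimulated response elements, and the letters GAAANNGAAA (TTTCNNTTTC on the other strand) were searched on both strands in the 250 bases before each RefSeq start (build GRCm38.p6). Of the type I list, 27 genes had a window and 10 (37%) held the motif, as did 8 of 16 genes (50%) of the interferon-gamma list and 3.46% of all 27025 genes with a window. The windows below are those of the interferon genes named above that held the motif, and are printed on the strand of the gene with each match in capitals. Matches may overlap each other, as in Gbp3 and Irgm1. A match describes the letters and is not a measured binding site.
Ifit3, chr19:34583348-34583441, + strand: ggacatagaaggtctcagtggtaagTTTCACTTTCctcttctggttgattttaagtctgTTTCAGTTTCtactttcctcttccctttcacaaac
Ifit1, chr19:34640760-34640838, + strand: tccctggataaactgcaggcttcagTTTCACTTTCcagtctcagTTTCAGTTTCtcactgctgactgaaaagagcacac
Gbp3, chr3:142559974-142560039, + strand: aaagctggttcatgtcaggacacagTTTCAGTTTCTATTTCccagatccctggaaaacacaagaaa
Gbp2, chr3:142620579-142620638, + strand: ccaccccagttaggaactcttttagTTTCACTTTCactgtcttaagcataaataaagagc
Irgm1, chr11:48871421-48871475, - strand: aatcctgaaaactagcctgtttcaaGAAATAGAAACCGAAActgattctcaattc
Irgm2, chr11:58214888-58214947, + strand: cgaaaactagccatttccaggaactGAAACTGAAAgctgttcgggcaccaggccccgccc
Slfn5, chr11:82951922-82951981, + strand: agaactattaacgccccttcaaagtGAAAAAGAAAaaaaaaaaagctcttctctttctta
Oas3, chr5:120777700-120777759, - strand: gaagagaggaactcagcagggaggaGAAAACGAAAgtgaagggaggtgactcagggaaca
In Gbp3 and Irgm1, whose Dasatinib 1 signals were above DMSO 5 by 1.64 and 1.5, the first match began 45 and 30 bases before the start, and in Ifit3 and Ifit1, with differences of 2.01 and 1.44, it began 156 and 104 bases before it.

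Inflammatory mediators that depend on NF-kB had medians of 0.32 on Dasatinib 1 and 0.01 on Dasatinib 2 over 39 tested genes, of which 3 were higher and 1 lower at an unadjusted p under 0.05 within sets, against 1.86% and 2.1% of all genes. The chemokine Ccl5 was at 10.07 on Dasatinib 1 and 8.84 on DMSO 5, and at 8.94 and 8.91 on the arrays of set B, with 8.15 and 8.11 on DMSO 2 and 4. Both Dasatinib arrays were the highest of the 6, that of set B by 0.02. Ccl2, which recruits monocytes, was below its own-set control on both, by 0.76 and 0.27, and was below every DMSO array, at 8.03 and 7.85 against 8.11 to 8.79 (limma, within sets -0.51 ± 0.13, unadjusted p = 0.00715). Il6 and Csf3, which encodes G-CSF, were higher by 0.55 and 0.69 on Dasatinib 1 and by 0.36 and 0.08 on Dasatinib 2. Of 34 immediate early and ERK feedback genes, 1 was higher within sets, the orphan nuclear receptor Nr4a1, by 0.62 and 0.16, while Nr4a3 and the phosphatase Dusp2 differed by 0.93 and 1.03 on Dasatinib 1 and by 0.06 and -0.06 on Dasatinib 2.

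The effector genes by which Gr-MDSCs restrain T cells had medians of 0.26 and 0.00 over 26 tested. Entpd1, the ectoenzyme CD39 that starts the making of adenosine, was at 10.23 on Dasatinib 1, 9.31 on DMSO 5 and 10.19 to 10.57 on the other arrays (limma, within sets 0.47 ± 0.20, unadjusted p = 0.0497), so that DMSO 5 was the low array. Wfdc17, an antiprotease-like protein of activated myeloid cells, was at 11.83 on Dasatinib 1 and 12.88 to 13.19 on the other 5. Ido1, which degrades tryptophan, was at 6.86 on Dasatinib 1 and 5.76 on DMSO 5, and at 4.22 to 4.83 elsewhere. Of 29 adhesion and actin regulators 1 was higher within sets, where 1.86% of all genes were. It was Itga4, the alpha chain of VLA-4, by 0.70 and 0.13. H2-Eb1, an MHC class II chain, was higher on Dasatinib 1 by 0.97 and differed by -0.10 on Dasatinib 2.

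Granulocyte genes as a group had medians of -0.04 and 0.01 over 34 tested. At an unadjusted p under 0.05 within sets, 0 were higher and 2 lower, against 1.86% and 2.1% of all genes. Those 2 are granule genes. Ngp, a secondary granule protein, was at 6.70 on Dasatinib 1 and 8.94 on DMSO 5, at 8.90 and 8.97 in set B, and at 10.45 and 10.31 in set A. Mmp8, neutrophil collagenase, was at 7.48 and 9.08 in set C and at 9.59 to 9.70 elsewhere. Ngp and Mmp8 passed the test of the difference between sets (limma, adjusted p = 0.0223 and 0.0403), as did 0.492% of all genes. Stfa2l1, a stefin protease inhibitor, and Cd177, a neutrophil surface antigen, differed by -1.35 and -1.66 on Dasatinib 1 and by 0.05 and 0.10 on Dasatinib 2. Cxcr2, the receptor for neutrophil chemokines, differed by 0.32 and 0.10. In bulk samples fewer cells of a type and less RNA per cell cannot be told apart.

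Of 23 monocyte and macrophage markers, 20 were lower on Dasatinib 2 than on DMSO 3, with a median of -0.12, where 7756 of all 14237 genes were lower. On Dasatinib 1, 13 of the 23 were higher, with a median of 0.11. At an unadjusted p under 0.05 within sets, 1 was lower (2.1% of all genes were), Mrc1, the mannose receptor, at 6.10 and 6.56 in set C, 4.49 and 4.72 in set B and 4.79 and 4.64 in set A. Adgre1, a surface antigen of macrophages, was higher on Dasatinib 1 by 0.74 and by 0.07 on Dasatinib 2. The summed log2 level of the list was 14.62 and 14.40 in set C, 14.59 and 14.63 in set B, and 14.42 and 14.41 in set A. Ppbp, a platelet chemokine, was at 8.16 on Dasatinib 1, 10.46 on DMSO 5, 6.19 on both arrays of set B and 11.78 and 11.91 in set A, and passed the test of the difference between sets (limma, adjusted p = 0.0191). Of the T and NK cell list (14 tested) 2 were higher, where 1.86% of all genes were, and 1 lower. The dendritic cell list (12) and the B cell list (7) held 0 calls. The mast cell, basophil and eosinophil list (6) held 1 in each direction. Of the endothelial list (12) 1 was lower, Pecam1, the adhesion molecule CD31.

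Transcripts of stroma were lower on Dasatinib 1 than on DMSO 5. Of 29 fibroblast and matrix genes tested, 0 were higher and 11 lower at an unadjusted p under 0.05 within sets (37.9% of the list, against 2.1% of all genes), 0 passed the adjusted threshold, and 0 were called without the block. The median own-set differences were -0.38 and -0.08, with 25 and 20 of the 29 lower, against 6593 and 7756 of all 14237 genes. Col3a1, type III collagen, was at 8.67 and 9.82 in set C, 5.23 and 5.80 in set B and 9.29 and 9.17 in set A, a difference of -0.86 ± 0.15 within sets (limma, unadjusted p = 0.000786). Bgn, a matrix proteoglycan, and Col6a1, a chain of type VI collagen, differed by -0.81 and -1.14 in set C and -0.58 and -0.22 in set B. Postn, a matrix protein of activated fibroblasts, differed by -2.61 and -0.23 and passed the test of the difference between sets (adjusted p = 0.0211). The summed log2 level of the list was 12.10 and 12.69 in set C, 10.92 and 10.98 in set B, and 11.80 and 11.86 in set A. The level of stromal RNA thus moved with the set, and its part in other differences was not tested.

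Simple epithelial markers separated the sets and not the treatments. Krt8, a keratin of simple epithelia, was at 13.37 and 13.31 in set C, 8.30 and 8.33 in set B, and 10.43 and 10.17 in set A, and the median of the 29 epithelial markers tested was 0.00 on Dasatinib 1 and 0.06 on Dasatinib 2. Epcam, an epithelial adhesion molecule, was at 11.93 and 11.83, 7.18 and 6.79, and 9.09 and 9.01 in the same order. Their summed log2 level was 15.78 and 15.76 in set C, 12.00 and 11.91 in set B, and 13.69 and 13.65 in set A.

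Squamous and basal genes differed in opposite directions on the Dasatinib arrays. Over 28 tested the median difference was -0.32 on Dasatinib 1, where 5 were higher, and 0.31 on Dasatinib 2, where 23 were higher, and 6 passed the test of the difference between sets (21.4%, against 0.492% of all genes). Krt14, the keratin of basal cells, was by its brightest probe set at 9.95 and 11.41 in set C, 7.64 and 6.66 in set B and 8.94 and 8.70 in set A. Krt16, a keratin of stressed epithelium, differed by -0.39 and 1.06, and Krt6b, picked after its values were seen, by -2.20 and 1.20. All 6 probe sets that were higher by 2-fold or more on Dasatinib 2 than on DMSO 3 belong to epithelial or secretory genes: Krt6b, Krt10, Krt14, Krt16, Reg3b and Shroom3, a regulator of epithelial cell shape. The single lower one is assigned to more than 1 gene. Krt13, a keratin of stratified mucosa, differed by -2.56 and -0.08, and Krt17 and Krt15 were higher in both sets, by 0.34 and 0.49, then 0.67 and 0.36. The summed log2 level of the list was 13.84 and 14.28 in set C, 11.02 and 10.61 in set B, and 13.72 and 13.69 in set A.

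Seminal vesicle secretory genes, which encode proteins of the seminal fluid, stood out in set C. Svs2, a major protein of the copulatory plug, was at 12.12 on Dasatinib 1 and 13.09 on DMSO 5, and at 2.15 to 2.29 on the other 4 arrays. Svs5 was at 8.70 and 13.11, and at 3.67 to 4.11 elsewhere. Svs4, Svs3a, Svs5 and Pate4 differed in set C by -2.61, -2.05, -4.41 and -2.14, and by -0.21, -0.04, 0.00 and 0.02 in set B. Svs3a was above the other arrays on DMSO 5 alone, at 5.88 against 3.49 to 3.88. Like Svs2, Svs4, Svs5 and Pate4, it passed the filter on dim probe sets only through set C, so that no count of calls is given for this list. Without the block, Svs2 was 2.31 ± 4.14 higher with Dasatinib, a value that rests on the set of Dasatinib 1. The amount of seminal vesicle RNA therefore moved with set C and was lower on Dasatinib 1 than on its control, and whether it bears on the other genes of that set was not tested.

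**Figure D4:**
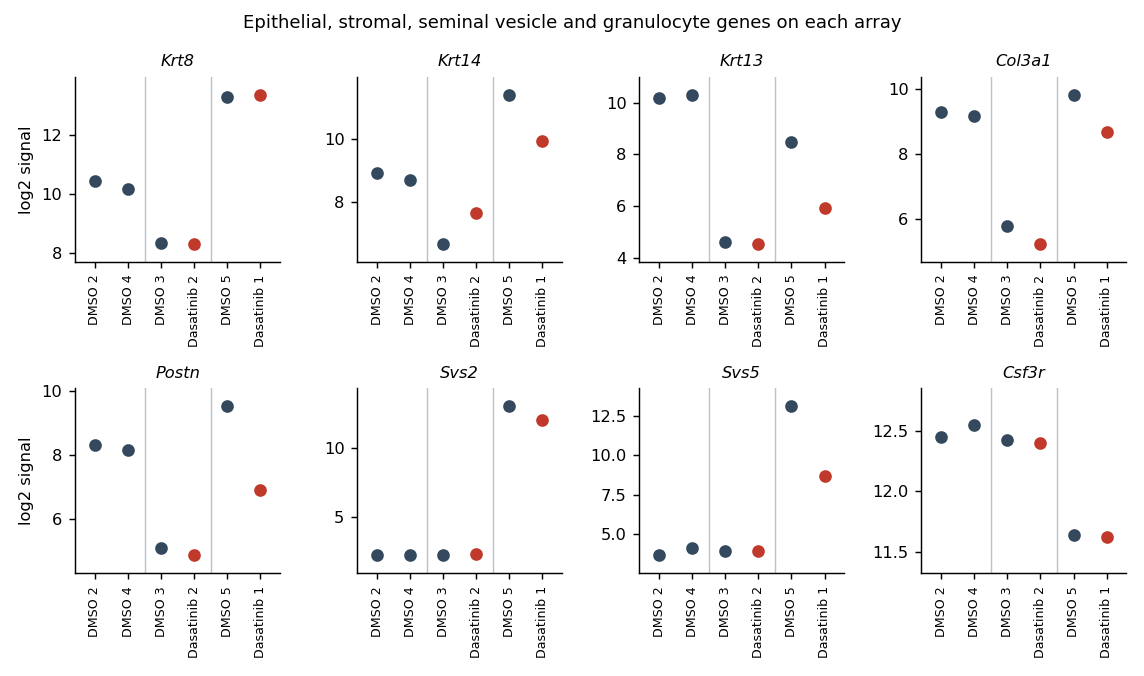
Log2 signal of epithelial (Krt8, Krt14, Krt13), stromal (Col3a1, Postn), seminal vesicle (Svs2, Svs5) and granulocyte (Csf3r) genes (y axes, not starting at 0) on the 6 arrays (x axes), DMSO in dark blue and Dasatinib in red, 1 point per array. Krt8 and Svs2 were high on both arrays of set C, at 13.31 or more and 12.12 or more, while Csf3r was lowest there, at 11.62 and 11.64.

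Of 69 tested subunits of the respiratory chain and ATP synthase, 57 were lower on Dasatinib 1 and 54 on Dasatinib 2 than on their controls, against 6593 and 7756 of all 14237 genes, with medians of -0.15 on Dasatinib 1 and -0.05 on Dasatinib 2. The corresponding median between DMSO 2 and DMSO 4 was 0.05, which is the size of that on Dasatinib 2. None was called at an unadjusted p under 0.05 in either fit of limma, and without the block the median was -0.02. Atp5k, a subunit of ATP synthase, was at 9.97 and 10.31 in set C, 9.94 and 10.07 in set B and 9.86 and 9.77 in set A (limma, within sets -0.23 ± 0.11, unadjusted p = 0.0638). Ndufa1, a subunit of complex I, differed by -0.44 and -0.06. The summed log2 level of the list was highest on DMSO 5, at 16.05, and lowest on the set B arrays, at 15.44 and 15.49.

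Stress and biosynthesis genes varied more by set. Psat1 and Asns, which make serine and asparagine and are targets of the integrated stress response, were at 8.24 and 8.20 on Dasatinib 1 and 8.73 and 8.92 on DMSO 5, against 4.46 to 5.34 and 7.20 to 7.39 on the other 4 arrays. Psat1 was lower on the Dasatinib array of each set, by 0.49 and 0.42 (limma, within sets -0.46 ± 0.14, unadjusted p = 0.0135). Calls in the lists that follow are at an unadjusted p under 0.05 within sets, where 1.86% of all genes were higher and 2.1% lower. Of 21 heat shock and unfolded protein genes 2 were lower within sets, Sdf2l1 and Pdia4 of the endoplasmic reticulum, by 0.48 and 0.36, then 0.19 and 0.19. Of 24 hypoxia and glycolysis genes 2 were lower, Adm and P4ha1, a collagen prolyl hydroxylase, while Bnip3, a mitophagy receptor, differed by -0.86 and 0.02. Cholesterol synthesis genes had medians of -0.31 and 0.01 over 18 tested, with Fdps and Idi1 of the mevalonate pathway at -0.94 and -0.99 on Dasatinib 1 and at 0.02 and 0.07 on Dasatinib 2. Of 29 cell cycle genes 1 was lower, Rrm1, a subunit of ribonucleotide reductase, by 0.88 and 0.46 (limma, unadjusted p = 0.00116). The PI3K feedback and FoxO list (25) and the BCL2 family list (13) held 0 calls in either fit, with medians of 0.03 and 0.15 on Dasatinib 1 and 0.02 and -0.01 on Dasatinib 2.

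**Figure D5:**
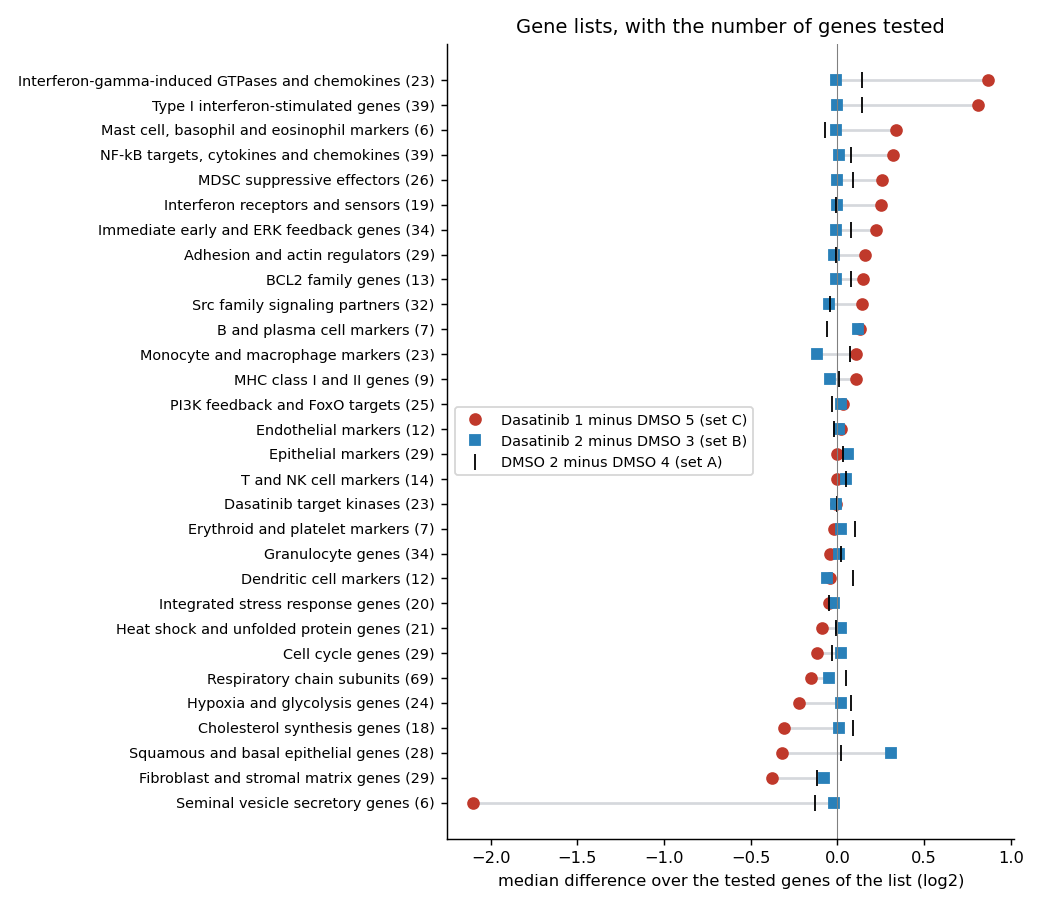
Median log2 difference (x axis) over the tested genes of each of 30 lists (y axis, number of genes tested in parentheses), for Dasatinib 1 minus DMSO 5 (red circles), Dasatinib 2 minus DMSO 3 (blue squares) and DMSO 2 minus DMSO 4 (black ticks). Red points spread from -2.10 (seminal vesicle genes, some of which passed the filter only through set C) to 0.87 (interferon-gamma list), while blue points stay between -0.12 and 0.31.

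Signs of RNA quality differed little. The 3' minus 5' signal of Gapdh on the control probe sets was -0.19 on Dasatinib 1 and -0.11 on Dasatinib 2, and -0.10 to -0.04 on the DMSO arrays, on the log2 scale. That of Actb was 0.06 and 0.11, and 0.03 to 0.08 with DMSO. The part of these values in the differences on Dasatinib 1 was not tested. No source says that Dasatinib 1 and DMSO 5 came from 1 mouse or 1 culture, so that an effect of Dasatinib and any other difference between these 2 samples cannot be told apart.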

How the data were processed

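RNA of 8 samples was hybridised to Affymetrix mouse whole-genome arrays, and the 6 Dasatinib and DMSO arrays were compared. The authors deposited 1 table of normalised log2 signals for 45101 probe sets. The methods name the oligo package and the submitters' processing notes name MAS5, so that the summarisation is not settled. Array medians were 4.82 to 4.87, and the values were used as deposited. The number of arrays limits the precision. After removal of 64 control probe sets, the upper 66.7% by mean over all 8 arrays (mean log2 signal above 3.98) were kept, 30024 in all. GEO's platform annotation gave 34945 probe sets 1 gene, 932 several and 9160 none, and a gene was represented by its brightest probe set.

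Groups follow the array titles. Fits used limma 3.58.1 in R 4.3.3 with Benjamini-Hochberg adjustment over all tested probe sets. They compared Dasatinib against DMSO without a block (4 residual degrees of freedom) and with the array set as a block (2). The last fit compared the Dasatinib minus DMSO difference between sets C and B (1). The 3 array sets came from average linkage on 1 minus Pearson's r, and so from the measured values themselves; no source names them as a batch. Alternatives were quantile normalisation, 32 added before log2, other filters, priors and weights, all 8 arrays, a random block, and leaving out each array. The 30 gene lists held 810 entries, of which 739 were on the array and 699 tested. Genes named are, per fit, the 6 higher and 6 lower with the lowest p, the 6 and 6 most alike on both arrays, up to 4 per list with the lowest p, and fixed kinases and markers. Members and lists were chosen with earlier results of these data known.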

Additional observations from a re-analysis of the deposited data

Results flagged for a closer look

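The Dasatinib minus DMSO difference was unequal between set C and set B at 106 probe sets in limma. Each of these sets holds a single Dasatinib and a single DMSO array. An effect of Dasatinib and any other difference between those arrays therefore cannot be told apart. On the log2 scale, as set C minus set B, the values were 5.74 for Prol1 (which passed the filter only through Dasatinib 1), 5.51 for 2310057J18Rik, 3.70 for Clba1, 3.31 for Slco3a1, 2.02 for Ifit3 and 1.57 for Gbp3. Negative values were found for Svs5 (-4.41), Mndal (-3.80), Krt6b (-3.40), Lgals4 (-3.17), Ctse (-2.87), Saa3 (-2.58), Krt13 (-2.48), Svs4 (-2.40), Postn (-2.38), Krt14 (-2.32), Ppbp (-2.30), Ngp (-2.17), Pate4 (-2.16), Casp4 (-1.95), Shroom3 (-1.67) and Mmp8 (-1.59). Of those, Svs5, Svs4 and Pate4 passed the filter only through set C, so that their values are a description.

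Among the 4 DMSO arrays, 1 array lay far from the others for 23 of 104 genes and 8 of 30 lists, where chance marks about 1 in 20 groups of exchangeable arrays. DMSO 2 and DMSO 4 share set A while DMSO 3 and DMSO 5 lie in other sets, and many of the genes were named for differences between sets, so that these counts cannot be read against that share. The measure is the gap to the nearest array over the whole range, judged against Dixon's critical value. DMSO 5 stood apart for Svs2 (0.995), Fyn (0.984), Pate4 (0.976), Svs4 (0.967), Ndufa1 (0.954), Svs5 (0.953), Pdia4 (0.949), Csf3 (0.925), Mrc1 (0.922), Rrm1 (0.91), Asns (0.89), Psat1 (0.881), Fgr (0.873), Ifnar1 (0.86), Csf3r (0.857), Socs2 (0.854), Lcp2 (0.854) and Svs3a (0.837). DMSO 3 stood apart for St3gal2 (0.932), Gbp3 (0.917), Ifit1 (0.855), Rab25 (0.845) and Col3a1 (0.838). For the summed level of a list, DMSO 5 stood apart for the seminal vesicle genes (0.984), target kinases (0.981), Src family partners (0.93), PI3K feedback and FoxO targets (0.885), MDSC effectors (0.881) and mast cell, basophil and eosinophil markers (0.837), and DMSO 3 for monocyte and macrophage markers (0.913) and squamous genes (0.839).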

How the results depend on the processing

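No paired analysis was possible because the Dasatinib and DMSO arrays share only 1 replicate number, so that no fit with a replicate block can be made. Without the block, 0 probe sets passed the adjusted threshold in limma under every alternative run, except 2 without Dasatinib replicate 2 (range 0 to 2 when each array was left out in turn). Within sets the count was 0 except 764 without Dasatinib replicate 2 or without DMSO replicate 3 (range 0 to 764). At an unadjusted p under 0.05 the counts of 110 and 1464 ranged from 20 to 1206 and from 805 to 5891 when an array was left out.

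The count of 106 for the difference between sets was 162 with quantile normalisation, 540 with 32 added before log2, 62 without a filter, 364 when the brightest 1 in 3 probe sets were kept, 578 with a trended and robust prior and 317 with all 8 arrays. The split of 48 positive and 58 negative became 343 and 197 with 32 added, 248 and 116 with the brightest 1 in 3, 372 and 206 with the trended prior, and 18 and 44 without a filter; the cause was not tested. With DMSO 2 or DMSO 4 left out this test has no residual degrees of freedom. With any other array left out the difference between sets cannot be formed. Alternatives for own-set differences were chosen after seeing the data: with 32 added, 185, 1 and 0 probe sets were past 2-fold for Dasatinib 1, Dasatinib 2 and DMSO 2 against DMSO 4, and with the brightest 1 in 3, 231 and 3 for the first and last. When the probe sets of each gene were averaged, list medians within sets were 0.00 for target kinases, -0.13 for the integrated stress response and 0.00 for B and plasma cell markers.

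Of 73 named genes, Ifit1 and Ifit3 among them, that had an unadjusted p under 0.05 within sets or were chosen in that comparison, 0 reversed in 628 comparisons with other settings. When Dasatinib 1 or DMSO 5 was left out, 5 of them reversed: Irgm1 ranged from 0.00 to 1.5, Ifit3 from -0.01 to 2.01, Ifit1 from 0.00 to 1.44, Ppbp from -2.29 to 0.01 and Pate4 from -2.14 to 0.02, so that their direction rests on set C. The same holds for other genes whose own-set difference on Dasatinib 2 had the opposite sign, such as Clba1, 2310057J18Rik, Casp4, Saa3, Dusp2, H2-Eb1, Wfdc17, Bnip3, Vav1, Fdps and Cd177.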
